A study of Mus musculus with 6 samples.

Results

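Replication licensing is the step that prepares chromosomes for copying, and 10 of its genes were followed here: the helicase subunits Mcm2, Mcm3, Mcm4, Mcm5, Mcm6 and Mcm7, the loaders Cdc6 and Cdt1, the helicase activator Cdc45 and the sliding clamp Pcna. Each was read from a probe set that the platform annotation pairs with that gene alone, taking the brightest where a gene has several, and all 10 were found among 19937 genes measured in that way. Expression was measured on 1-colour Affymetrix whole-transcript arrays, 1 per sample. The RNA came from cultured stem and progenitor cells of the adult mouse nervous system.

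The control group held 3 cultures from Sirt1lox/lox mice, which carry floxed Sirt1 alleles and no Cre and are labelled as expressing active SIRT1. The Sirt1 inactive group held 3 cultures from NestinCre;Sirt1lox/lox mice, labelled as lacking active SIRT1, an NAD-dependent deacetylase. All mice were of the 129SV strain and aged 8 weeks, and all cells were grown with EGF and bFGF, as neurospheres and then attached, and collected while proliferating at passage 2. Nestin-Cre acts in neural stem and progenitor cells; since it was present only with the inactive allele, an effect of Cre itself cannot be told apart from that of SIRT1. The samples are titled as biological replicates, with no word on how many mice stand behind each.

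As background, the origin recognition complex marks start sites of replication, and in G1 phase Cdc6 and Cdt1 load rings of Mcm2 to Mcm7 around the DNA there. At the start of S phase Cdc45 and the GINS proteins join the rings to form the running helicase, while geminin and the destruction of Cdt1 prevent a new round of loading. PCNA encircles the DNA behind the helicase and holds the polymerases. Most of these genes are classic targets of E2F transcription factors, and MCM proteins mark cycling neural progenitors, being lost as such cells leave the cycle for good.

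Words of the E2F type can be looked for in the DNA around the start sites, which is why short stretches are shown here. RefSeq promoters of assembly GRCm38.p6, from 250 bases before to 50 bases after the start, were at hand for 9 of the 10 genes, with 2 promoters for Mcm7; Mcm4 was not among them. They were searched on both strands for the E2F-type words TTTCCCGC, TTTCGCGC, TTTGCCGC and TTTGGCGC, with overlapping matches joined. A word was found for 6 genes, in 6 of 10 promoters (60%), and none for Mcm2, Cdc45 and Pcna. The other replication and cell cycle genes listed further down had a word in 28 of 109 promoters (25.7%). Among all promoters the count was 744 of 32851 (2.26%). One window of 30 bases is given for each of these 6 genes, 5′ to 3′ on the gene's strand, with the matching letters in capitals.
Mcm3: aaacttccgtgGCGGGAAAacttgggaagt
Mcm5: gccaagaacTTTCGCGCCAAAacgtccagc
Mcm6: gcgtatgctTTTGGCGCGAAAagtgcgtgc
Mcm7: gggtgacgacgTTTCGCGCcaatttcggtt
Cdc6: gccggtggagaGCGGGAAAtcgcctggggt
Cdt1: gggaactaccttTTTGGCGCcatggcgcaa
The windows lie at chr1:20820275-20820304 (minus strand), chr8:75109347-75109376 (plus), chr1:128359795-128359824 (minus), chr5:138171849-138171878 (minus), chr11:98908002-98908031 (plus) and chr8:122568035-122568064 (plus). In Mcm5 and Mcm6 matches on opposite strands overlap, so the joined stretch is 12 bases long rather than 8. Mcm3, Mcm6 and Mcm7 each hold a further match outside the window shown. In the windows of Mcm5, Mcm6 and Cdc6 the match lies before the start site, and in those of Mcm3, Mcm7 and Cdt1 after it. A match describes the letters alone, and binding was not measured.

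The deposited values are log2 RMA values, so a difference of 1 is a doubling on that scale, and the arrays had medians between 7.36 and 7.39. Of the 10 genes, 9 lay above the upper quartile on every array; Cdc6 was dimmer, between 8.17 and 8.39. Of 9 measured stem and progenitor markers most were bright. Nes was at 11.64 ± 0.08 in control and 11.64 ± 0.06 in Sirt1 inactive cultures and Sox2 at 11.70 ± 0.08 and 11.63 ± 0.03 (SD, n = 3). Vim, Fabp7, Slc1a3, Notch1 and Msi1 also lay above the upper quartile. Pax6 was dimmer, at 8.90 ± 0.39 and 9.14 ± 0.24, and Prom1 lay near the array medians, at 7.34 ± 0.28 and 7.34 ± 0.07. Mki67, a marker of cycling cells, was at 11.36 ± 0.07 and 11.32 ± 0.04. Sirt1 itself read 8.72, 8.78 and 8.55 in control and 8.26, 8.33 and 8.25 in Sirt1 inactive cultures, a difference of -0.41 (SE 0.08) that did not pass over all probe sets (limma, adjusted p = 0.959). Control replicate 3 lay farthest from the other arrays, at a median absolute distance of 0.117, against 0.059 to 0.089 for the remaining 5. Each sample is a bulk RNA, so fewer cells in S phase and less RNA per cell cannot be told apart.

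For none of the licensing genes was a difference between the genotypes detected beyond the spread of the replicates. The differences, Sirt1 inactive minus control, ran from -0.09 for Mcm2 to 0.10 for Mcm3, with a median of -0.008, and 4 of 10 lay above 0 and 6 below. Among all 22961 tested probe sets 39.9% lay above 0 and 60.1% below, and the median was -0.02. That split moves with small shifts: with each array centred on its median, 9 of 10 licensing genes and 50% of all probe sets were above 0. It was 2 of 10 without control replicate 1 or without Sirt1 inactive replicate 2, 7 without control replicate 3, and leaving out Sirt1 inactive replicate 1 gave 8. The count past the threshold was 0 of 10 (limma, adjusted p = 0.959 to 0.999) and 0 of 10 also at an unadjusted p under 0.05, where the background was 0 of 22961 probe sets (0%) and 830 (3.61%; 0.984% higher and 2.63% lower). Every 95% interval spanned 0, and none reached below 0.832-fold or above 1.21-fold.

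**Figure D1:**
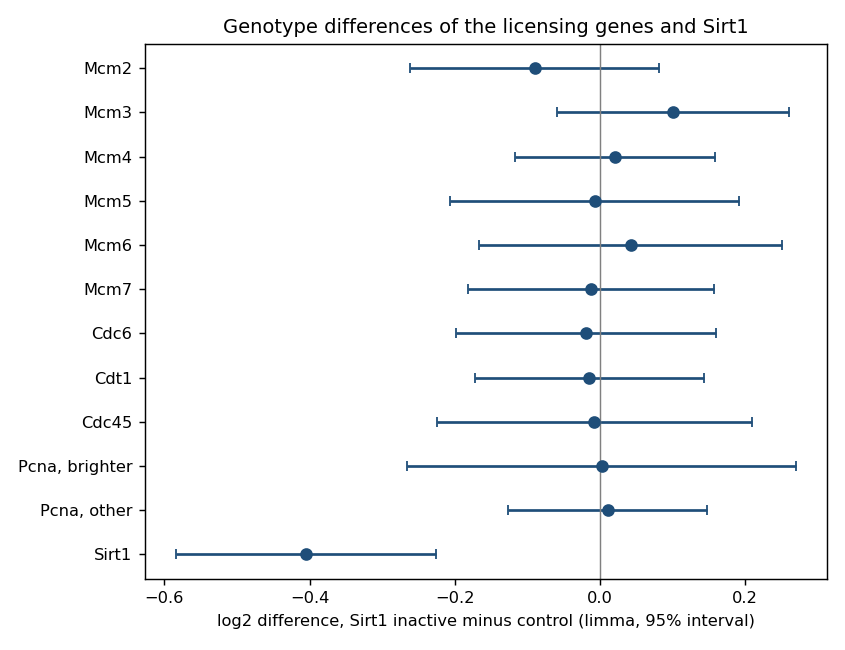
Log2 differences, Sirt1 inactive minus control, with 95% intervals from limma, for the 10 licensing genes, for the other probe set of Pcna and for Sirt1. All intervals of the licensing genes include 0, whereas that of Sirt1 runs from -0.58 to -0.23.

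Mcm2 is the subunit whose tail handles histones ahead of the fork. It read 11.02, 11.04 and 11.22 in control cultures against 11.02, 10.96 and 11.03 in Sirt1 inactive ones. The groups overlapped, and control replicate 3 stood above the other 5 arrays. The difference was -0.09 (SE 0.07; limma, adjusted p = 0.959) with all arrays and -0.03 without that one.

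Mcm3, the subunit through which Cdc6 and ORC take up the helicase, read 10.003, 10.17 and 10.16 in control and 10.18, 10.25 and 10.20 in Sirt1 inactive cultures. It was the 1 licensing gene of 10 whose groups did not overlap, against 9.33% of all probe sets (2.62% higher and 6.71% lower), and its nearest arrays were control replicate 2 and Sirt1 inactive replicate 1. The difference was 0.10 (SE 0.07; 95% interval -0.06 to 0.26; limma, adjusted p = 0.959), or 1.07-fold, higher in 3 of 3 same-numbered pairs. An exact two-sided permutation test gave p = 0.1, the smallest that 3 against 3 arrays allow. Control replicate 1 was the lowest array, and without it the difference was 0.05.

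Mcm4, Mcm6 and Mcm7 form the core that unwinds DNA in the test tube. Mcm4 read 10.54, 10.64 and 10.62 in control and 10.61, 10.65 and 10.59 in Sirt1 inactive cultures, the narrowest spread of the 10 genes at 0.11 over all 6 arrays. Mcm6 read 10.30, 10.45 and 10.49 against 10.36, 10.61 and 10.40. In Mcm7 the values were 11.10, 11.24 and 11.29 against 11.14, 11.26 and 11.19. All 3 overlapped between the groups, with differences of 0.02 (SE 0.06), 0.04 (SE 0.09) and -0.01 (SE 0.07). Mcm5, which with Mcm2 forms the gate of the ring, read 10.72, 10.77 and 10.997 in control and 10.79, 10.81 and 10.87 in Sirt1 inactive cultures. Control replicate 3 was again the highest array, and the difference was -0.007 (SE 0.08).

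The loaders gave the same picture. Cdc6, the ATPase that recruits the helicase, read 8.23, 8.31 and 8.26 in control and 8.19, 8.39 and 8.17 in Sirt1 inactive cultures. Its difference was -0.02 (SE 0.08), and both the lowest and the highest array were Sirt1 inactive ones, replicates 3 and 2. Cdt1, its partner, read 10.08, 10.18 and 10.23 against 10.11, 10.12 and 10.22, a difference of -0.01 (SE 0.07). Cdc45, which turns the loaded ring into a moving helicase, read 9.26, 9.44 and 9.59 against 9.35, 9.46 and 9.46. Here the 3 controls enclosed all Sirt1 inactive values, and the difference was -0.008 (SE 0.09).

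**Figure D2:**
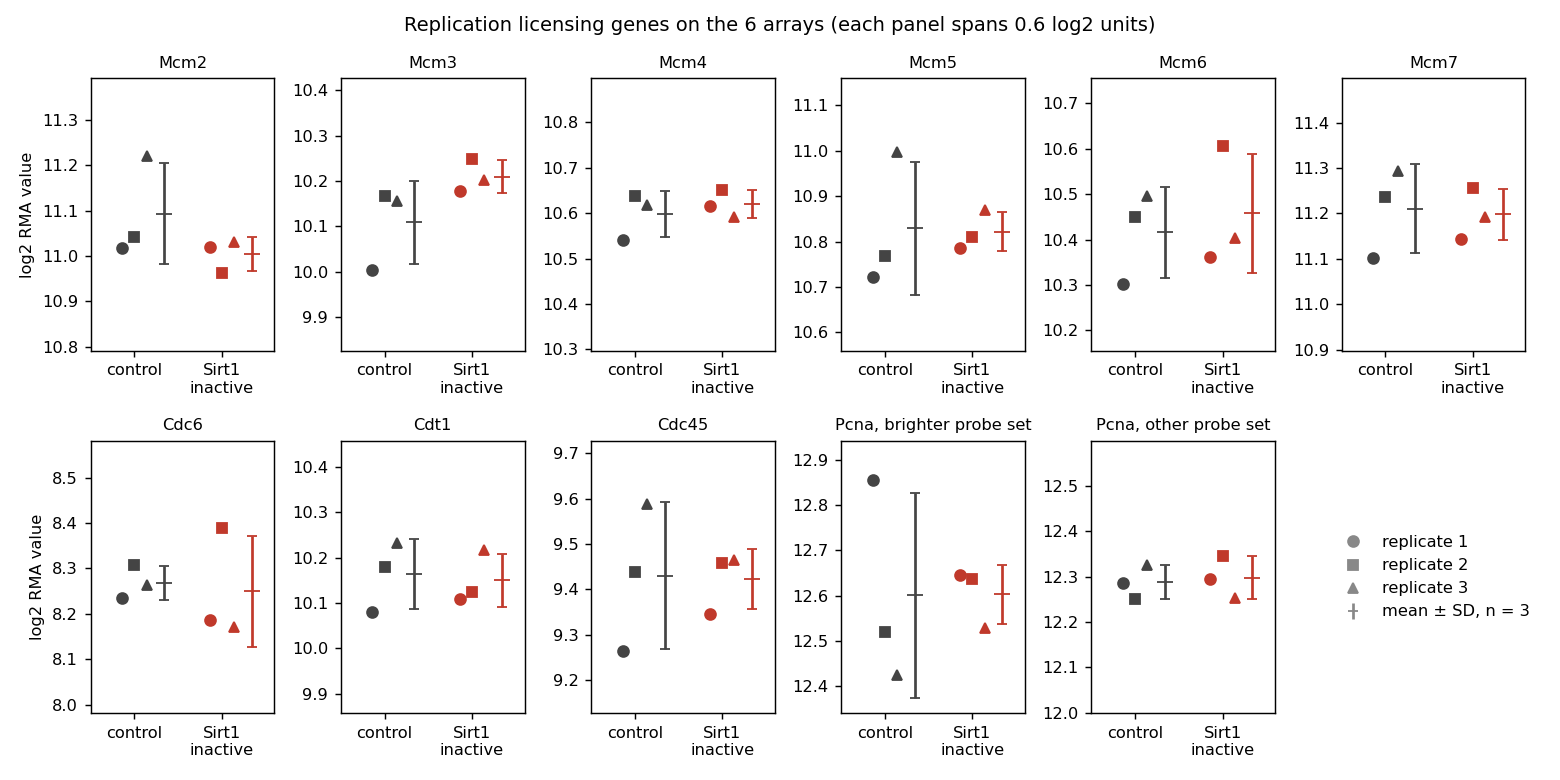
Log2 RMA values of each licensing gene on the 6 arrays, with symbols for the replicate number and bars for the mean ± SD of 3 arrays; all panels span the same number of log2 units. Mcm3 is the gene without overlap between the groups, and the brighter Pcna probe set has a control replicate 1 at 12.86, apart from the other arrays.

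For Pcna 2 single-gene probe sets carry the name, and they disagree from array to array. The brighter, probe set 10461391, read 12.86, 12.52 and 12.43 in control and 12.64, 12.64 and 12.53 in Sirt1 inactive cultures. The other, probe set 10487930, read 12.29, 12.25 and 12.33 against 12.29, 12.35 and 12.25. The first ranged over 0.43, the widest spread of the 10 genes, and the second over 0.10. Only the first placed control replicate 1 far above the rest, on the array where 7 of the 10 licensing genes had their lowest value. Neither differed by genotype, at 0.002 (SE 0.11) and 0.01 (SE 0.06; limma, adjusted p = 0.999 and 0.989).

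Probe sets with neighbouring numbers mostly carry genes that are neighbours on a chromosome, and the numbers place the 2 apart. The dimmer one has the probe sets of Tmem230 and Prokr2 as neighbours, and in RefSeq's table for GRCm38.p6 Pcna lies between these genes. The brighter one lies between the probe sets of Ahnak and Scgb2a2, genes of the chromosome on which RefSeq has the pseudogene Pcna-ps2, and in RefSeq that pseudogene lies between the same genes. A probe set named Rps7, a ribosomal protein gene of another chromosome, stands beside it. Which transcripts the brighter probe set reads was not tested. Its values are therefore uncertain as a measure of Pcna. With the dimmer probe set in its place the median difference of the 10 genes was the same, -0.008. Both Pcna differences lie above that median, so the exchange could not move it.

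Among the controls most licensing genes were lowest in replicate 1. The counts for the other arrays lay nearer to the shares of all probe sets. Within the Sirt1 inactive group the genes did not all move alike: in replicate 2 Mcm2 deviated from its own mean by -0.09 and Mcm6 by 0.17. Control replicate 1 was below both other controls in 9 of 10 genes, against 39.3% of all probe sets. The exception was Pcna, on the brighter and on the other probe set. Sirt1 inactive replicate 1 was below the others of its group in 6 of 10, against 35.6%. Control replicate 3 was the top control in 6 of 10, against 49.6%, and Sirt1 inactive replicate 2 the top of its group in 5 of 10, against 34.1%. The highest of all 6 arrays was control replicate 3 for 5 genes and Sirt1 inactive replicate 2 for 4, where the shares of all probe sets were 37.2% and 17.7%. The control SD was larger than the Sirt1 inactive SD for 8 of 10, against 60%. Averaged over the 9 genes other than Pcna, the deviation from a gene's own mean was -0.10, 0.01 and 0.08 in control replicates 1, 2 and 3. The corresponding values were -0.04, 0.04 and 0.002 in the Sirt1 inactive replicates. This pattern was noticed in the values and is given as a description.

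The array pattern was also looked at in other genes of the cell cycle. Over 111 further replication and cell cycle genes the mean deviation was -0.08, 0.02 and 0.03 in the controls and -0.05, 0.09 and -0.004 in the Sirt1 inactive cultures. Control replicate 1 was the lowest of the 6 arrays for 54 of these 111 genes and for 7 of the 10 licensing genes, against 17.4% of all probe sets; Sirt1 inactive replicate 2 was the highest for 53 of the 111. The 11 measured genes of mitosis and proliferation, such as Mki67 and Top2a, deviated by -0.08 in control replicate 1 and by 0.05 in control replicate 3. Not every list did so: the 6 origin recognition genes deviated by -0.06 in control replicate 3, and the 6 inhibitors of cyclin-dependent kinases by 0.01 in control replicate 1 and by -0.03 in Sirt1 inactive replicate 2. List means of markers of other cells moved along other arrays. In control replicate 3 the mean of 8 astrocyte markers deviated by -0.69 and that of 8 mural and fibroblast markers by -0.58. That of 10 neuron and neuroblast markers stood at 0.33. The genes of a list did not all follow. This array was the lowest for 5 of the 8 astrocyte and 6 of the 8 mural markers, and the highest for 1 of each. Gfap, Aqp4 and Gja1 deviated most. It was the highest for 9 of the 10 neuron markers, against 37.2% of all probe sets, and the lowest for Stmn2. In control replicate 1 these 3 lists deviated by 0.11, 0.10 and 0.05. The mean level of the neuron markers was 8.51 to 8.78 in control and 8.18 to 8.44 in Sirt1 inactive cultures, with 0 of 10 above 0, and that of the astrocyte markers 9.15 to 9.98 and 9.90 to 10.07, with 6 of 8 above 0. Of all probe sets 39.9% were above 0. Of the neuron markers 4 of 10 were lower at an unadjusted p under 0.05 (limma), against 2.63% of all probe sets. For 3 of the 10 the groups did not overlap, against 6.71% lower without overlap among all probe sets. Of 9 oligodendrocyte lineage markers 3 were above 0 and 6 below, with a median of -0.08. Those 3 were higher at an unadjusted p under 0.05 (limma) without overlap, Pdgfra by 0.79, Gpr17 by 0.75 and Sox10 by 0.28. Of all probe sets 0.984% were higher at that threshold, and 2.62% were higher without overlap. The mean level of the list was 9.74 to 9.91 in control and 9.88 to 10.09 in Sirt1 inactive cultures. All 8 microglia and macrophage markers were below 0, as were 60.1% of all probe sets. For 4 of them the groups did not overlap, against 6.71%. These markers were dim: the mean level of the list was 6.77 to 6.87 in control and 6.70 to 6.74 in Sirt1 inactive cultures. The array medians were 7.36 to 7.39. No marker passed over all probe sets. The part of cell make-up in the values of the licensing genes was not tested.

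**Figure D3:**
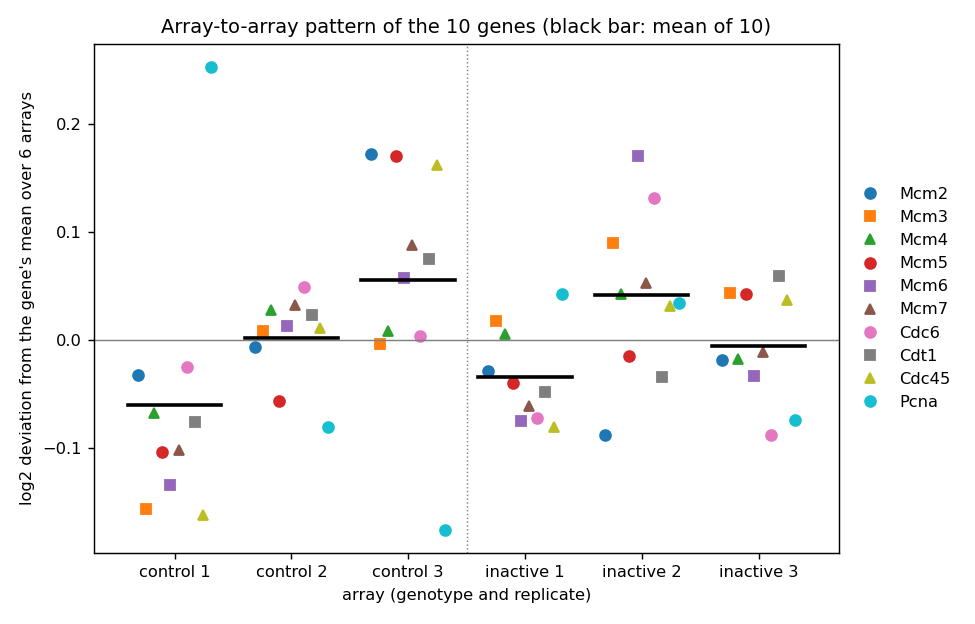
Deviation of each licensing gene from its own mean over the 6 arrays, in log2 units, by array; black bars give the mean of the 10 genes. Control replicate 1 holds 9 of the 10 points below 0 and the brighter Pcna probe set above, while control replicate 3 has Mcm2, Mcm5 and Cdc45 at the top.

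Because the 6 subunits work in 1 ring at equal numbers, their levels were also set against each other within each array, which removes what an array adds to all of them alike. Of the 15 pairs of subunits, 3 had groups that did not overlap, and all 3 involved Mcm3; among all 7626 pairs of the replication and cell cycle genes the share was 9.47%. Mcm2 minus Mcm3 was 0.99 ± 0.10 in control and 0.79 ± 0.07 in Sirt1 inactive cultures (SD, n = 3), so that Mcm3 shifted by 0.19 against Mcm2. Against Mcm4 Mcm3 shifted by 0.08 and against Mcm7 by 0.11. These pairs share Mcm3 and were picked out of the 15 after their values were seen, so they are given with no test. Leaving out single arrays moved the shift against Mcm2 between 0.15 and 0.25.

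Mcm3 can also be set against all its partners at once. Mcm3 minus the mean of the other 5 subunits read -0.73, -0.66 and -0.77 in the control arrays. In the Sirt1 inactive arrays it read -0.609, -0.609 and -0.615. The shift was 0.11; this contrast was formed after the values of Mcm3 were seen and is a description, with no test. In the 10 pairs without Mcm3 the groups overlapped, and some shifts were as large: Mcm2 minus Mcm6 shifted by -0.13 and Mcm2 minus Mcm4 by -0.11, while Mcm5 minus Mcm7 shifted by 0.005.

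**Figure D4:**
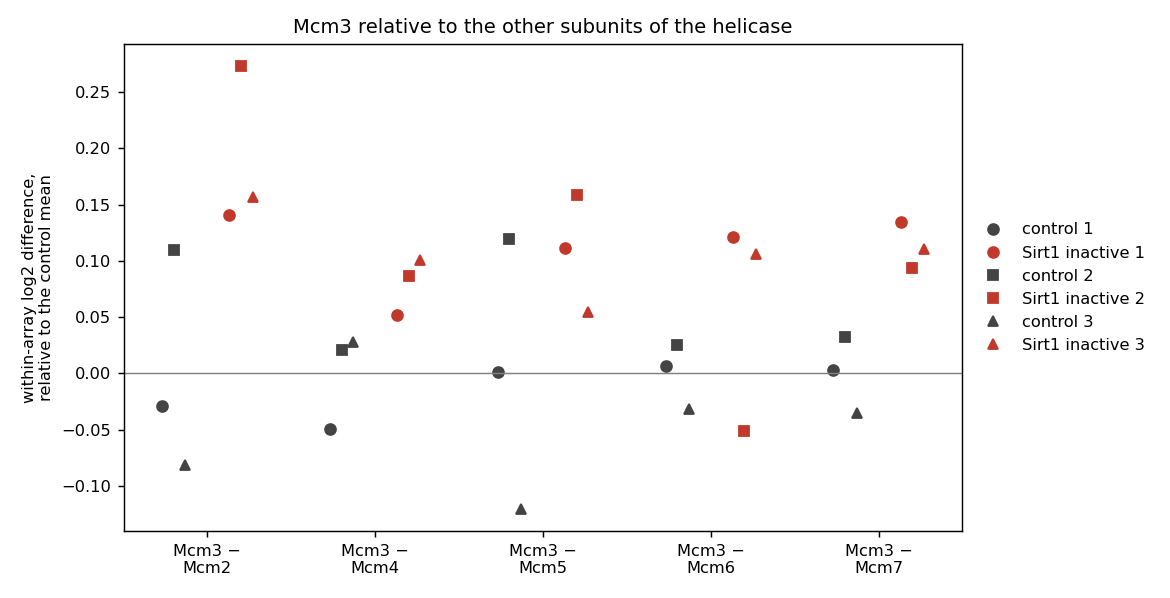
Within-array log2 difference of Mcm3 minus each other subunit, shown relative to the mean of the 3 controls, with 1 point per array. The red Sirt1 inactive points lie above all grey control points against Mcm2, Mcm4 and Mcm7, and overlap them against Mcm5 and Mcm6.

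The origin recognition complex receives the helicase. All 6 of its genes, Orc1 to Orc6, had differences above 0, with a median of 0.10, against 39.9% of probe sets above 0 and a median of -0.02 overall. They ran from 0.04 for Orc3 to 0.17 for Orc4 (SE 0.09), with Orc1 at 0.12, Orc5 at 0.11, Orc6 at 0.09 and Orc2 at 0.05. None of the 6 passed over all probe sets or at an unadjusted p under 0.05 (limma), and in all 6 the groups overlapped. Sirt1 inactive replicate 2 deviated by 0.18 over these genes; leaving it out gave 6 of 6 above 0 and a median of 0.01, and leaving out control replicate 1 a median of 0.05.

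Genes that permit or block licensing gave 13 of 17 above 0, against 39.9% of all probe sets, with a median of 0.04. Past the adjusted and the unadjusted threshold were 0 of 17, against 0% and 3.61% of all probe sets. For 2 of 17, Ccne1 and Cdk2, the groups did not overlap, against 2.62% of all probe sets higher without overlap. Gmnn, encoding geminin, the inhibitor of Cdt1, differed by 0.015 (SE 0.13). Cdc7 and Dbf4, kinase and activator that fire loaded helicases, differed by 0.05 (SE 0.18) and 0.13 (SE 0.13). Ccne1 and Ccne2, the E cyclins of S phase entry, differed by 0.09 (SE 0.06) and 0.11 (SE 0.08). The highest was the ubiquitin ligase scaffold Cul4b at 0.16 (SE 0.09) and the lowest Fzr1, an activator of the anaphase-promoting complex in G1 phase, at -0.12 (SE 0.08). The count above 0 dropped to 7 of 17 without Sirt1 inactive replicate 2 and to 8 of 17 without control replicate 1.

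Partners of Cdc45 in the running helicase and firing factors were above 0 in 9 of 14 genes, against 39.9% of all probe sets, with a median of 0.04. Leaving out control replicate 1 gave 7 of 14 and a median of -0.007, and leaving out Sirt1 inactive replicate 2 gave 8 of 14 and 0.008. The GINS genes Gins1, Gins2, Gins3 and Gins4 differed by 0.04, 0.07, 0.11 and -0.02, and Mcm10, which helps the helicase start, by 0.02 (SE 0.10). Mtbp, a partner of the firing factor treslin, read 8.42, 8.56 and 8.497 in control and 8.59, 8.85 and 8.64 in Sirt1 inactive cultures. It was the 1 gene of these 14 whose groups did not overlap, against 2.62% of all probe sets higher without overlap. Mtbp had the largest difference of these replication lists, 0.20 (SE 0.09), yet it did not pass (limma, unadjusted p = 0.053, adjusted p = 0.959). Recql4, a helicase of replication initiation, was lowest at -0.09 (SE 0.07).

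Of the relatives of the MCM genes 2 of 6 lay above 0, against 39.9% of all probe sets, with a median of -0.05. The count was 0 without control replicate 1 or Sirt1 inactive replicate 2. With arrays centred on their medians it was 3, against 50% of all probe sets. Mcm8, a helicase subunit of recombination repair, was lowest at -0.16 (SE 0.08), its partner Mcm9 was at -0.006 (SE 0.10), and Mcmbp, which binds free MCM proteins, was highest at 0.05 (SE 0.10). None passed (limma, adjusted p = 0.959 for Mcm8).

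For the counts that follow, 39.9% of all probe sets were above 0, and 50% with arrays centred on their medians. Of the 12 polymerase and primase genes 10 were above 0, with a median of 0.03. The extremes were Pole2 (0.12) and Pold4 (-0.04), which encode subunits of polymerases epsilon and delta. That count went to 4 when control replicate 1 was left out and to 5 when Sirt1 inactive replicate 2 was. Clamp loading and lagging-strand genes were above 0 in 10 of 19, with a median of 0.003 (4 and 6 of 19 on the same leave-outs, 14 with arrays centred), from Rfc1 of the clamp loader at -0.08 to Rpa3 of the single-strand binding complex at 0.18. E2F and pocket protein genes were above 0 in 9 of 13, with a median of 0.01 (6 of 13 and -0.004 without control replicate 1, 8 of 13 and 0.04 without control replicate 2); E2f1 itself differed by 0.002 (SE 0.06), E2f7, a repressor, by -0.11 and E2f5 by 0.17. The proliferation genes were above 0 in 7 of 11 (4 without control replicate 1 or Sirt1 inactive replicate 2), with a median of 0.02. Top2a was highest at 0.06, Mki67 was at -0.04 (SE 0.06), and the mitotic activator Foxm1 was lowest at -0.15, its groups not overlapping. Of the 111 further replication and cell cycle genes 4 were higher without overlap (Ccne1, Cdk2, Mtbp and E2f8) and 1 lower (Foxm1). The shares of all probe sets were 2.62% and 6.71%. None of these genes passed at the adjusted or the unadjusted threshold (limma), where the shares of all probe sets were 0% and 3.61%.

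**Figure D5:**
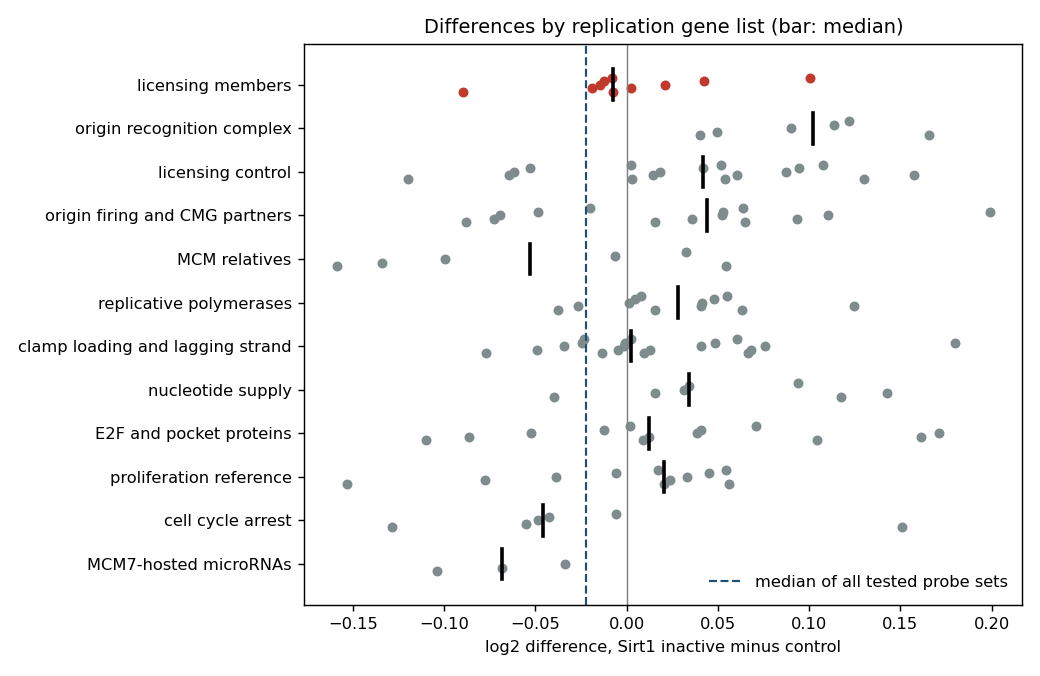
Log2 differences, Sirt1 inactive minus control, of every measured gene in each replication or cell cycle list, with a bar at each list's median and a dashed line at the median of all tested probe sets. Licensing genes, in red, lie between -0.09 and 0.10; all 6 origin recognition genes lie above 0.

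Mcm7 carries 3 microRNA genes in an intron, Mir25, Mir93 and Mir106b, so its transcript and theirs share a precursor. Their mature forms, from RefSeq, are shown with the seed (bases 2 to 8) in capitals; miR-93-5p and miR-106b-5p share 1 seed, and miR-25-3p has another.
mmu-miR-93-5p: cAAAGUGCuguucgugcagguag
mmu-miR-106b-5p: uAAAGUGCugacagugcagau
mmu-miR-25-3p: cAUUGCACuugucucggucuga
The probe sets of the 3 microRNA genes do not report which mature form is made. Mir25 read 8.95, 9.18 and 9.13 in control and 8.88, 9.12 and 8.94 in Sirt1 inactive cultures, a difference of -0.10 (SE 0.09). Mir93 differed by -0.07 (SE 0.10) and Mir106b by -0.03 (SE 0.07). All 3 were below 0, as were 60.1% of all probe sets, and none passed (limma). Mir25 and Mir93 had their lowest values at number 1 in both groups, as Mcm7 did, whereas Mir106b had its lowest at number 2 in both.

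Other genes were ranked by how near they came to the mean pattern of the 10 licensing genes. By the root mean square distance between deviations over the 6 arrays, the nearest were Olfr1283 (0.0081), Wnt2b (0.0082), Pfas (0.0088), Rrp12 (0.0093) and Magea4 (0.0094), against a median of 0.093 over all other genes. Their genotype differences ran from -0.01 to 0.004, and nearness in 6 arrays says only that their values ran alike.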

How the data were processed

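The authors deposited log2 values; per the submitters' processing notes they come from RMA, which the series' design text names too. RMA corrects background, equalises the arrays and summarises probes, which compresses differences of dim probe sets. The log2 scale was read from the values (3.02 to 13.62). Neither an RMA version nor a genome build is named in the labels or headers.

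Of 34760 probe sets, the 22961 with a gene in the platform annotation were tested, 21640 with 1 gene and 1321 with several; 11799 had none. The genotype fit used limma 3.58.1 (R 4.3.3) on 6 arrays (linear model, empirical Bayes, two-sided, Benjamini-Hochberg over all tested probe sets, threshold 0.05). Arrays give no depth; their number limits precision. P-values measure the spread between these samples. The fit was tested on simulated data with known changes and independent noise, which does not cover deviations that arrays share.

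The members and lists were chosen with earlier results of these data known. Named were all members, fixed genes of the lists, the highest and lowest of each list and the 5 nearest patterns. Same-numbered arrays deviated together from their group means (correlations over probe sets of 0.47, 0.36 and 0.27 for numbers 1, 2 and 3), so the numbers were taken as pairs in a blocked alternative. The leave-out fits of both arrays of a number and the second Pcna probe set were added after the data were seen.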

Additional observations from a re-analysis of the deposited data

How the results depend on the processing

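No licensing gene passed the threshold under any of the alternatives run, the smallest adjusted p being 0.672 (limma, Mcm2 with the replicate block and without number 1). The count of probe sets past the threshold stayed at 0. With the replicate block, the pairing changed no call. Each number has 1 array in each group, so the block leaves every difference as it was and could only change the p-values. Of the licensing genes 8 changed sign under some setting, and Mcm2 (-0.09) and Mcm3 (0.10) under none of those run. With array medians subtracted, Cdc45 was 0.015, Cdc6 0.0033, Cdt1 0.0077, Mcm5 0.015 and Mcm7 0.010. With array weights, Cdc45 was 0.011, Cdt1 0.0009, Mcm4 -0.0044 and Mcm5 0.048. After renewed quantile normalization, Cdc45 was 0.0008 and Pcna -0.0040. With the replicate block and without number 3, Cdc45 was 0.051, Cdc6 0.017, Mcm5 0.053, Mcm7 0.031 and Pcna -0.048; without number 1, Mcm4 was -0.0053. Leaving out single arrays gave ranges of -0.091 to 0.072 for Cdc45, -0.090 to 0.020 for Cdc6, -0.056 to 0.019 for Cdt1, -0.0076 to 0.040 for Mcm4, -0.061 to 0.076 for Mcm5, -0.033 to 0.090 for Mcm6, -0.067 to 0.029 for Mcm7 and -0.085 to 0.13 for Pcna. The cause was not tested. Probe sets at an unadjusted p under 0.05 numbered 830, but 1741 with the block, 1376 over the whole table, 312 without dim probe sets and 456 to 1453 with 1 array left out (456 without Sirt1 inactive replicate 2, 1453 without control replicate 1).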

Other observations

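Genes that supply nucleotides for replication were above 0 in 6 of 7 measured members, with a median difference of 0.03, against 39.9% of all probe sets above 0. Leaving out single arrays gave 5 to 7 of 7 above 0 and medians from 0.03 to 0.07, the highest without Sirt1 inactive replicate 3. Rrm2, the regulated subunit of ribonucleotide reductase, was highest at 0.14 (SE 0.09), with 11.57 ± 0.10 in Sirt1 inactive and 11.42 ± 0.12 in control cultures (SD, n = 3). Dck, a kinase that salvages deoxycytidine, was lowest at -0.04 (SE 0.10). Inhibitors of cyclin-dependent kinases, which hold cells in G1 phase, were above 0 in 1 of 6 measured members, with a median of -0.05. That 1 was Cdkn2b at 0.15 (SE 0.11), and Cdkn1c was lowest at -0.13 (SE 0.08). No gene of either list passed over all probe sets or at an unadjusted p under 0.05 (limma). The inhibitors above 0 numbered 3 of 6 without control replicate 3 or without Sirt1 inactive replicate 2, and 2 of 6 without replicate 1 of either group or with arrays centred on their medians.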
